A study of Homo sapiens with 6 samples.

Results

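The SLIT and ROBO guidance genes described here are 9 human genes of 1 signalling system: the secreted ligands SLIT1, SLIT2 and SLIT3, the receptors ROBO1, ROBO2 and ROBO3, and the intracellular effectors SRGAP1, SRGAP2 and SRGAP3. They were taken by symbol from a table of 35238 gene symbols, and all 9 had counts and passed the filter on low values that left 16954 genes. The family was chosen by its known role and selected on the measured differences between knockout and wildtype in these same libraries, so its fold changes and calls are given as a description, with no test of the members. Expression was measured by RNA sequencing in HAP1, an established near-haploid human cell line that came from a chronic myeloid leukaemia and grows attached. There were 3 libraries from cells with a DEGS1 knockout and 3 from wildtype cells, all of them untreated. DEGS1 encodes the desaturase that turns dihydroceramide into ceramide, and the series asks what its loss does to the cell. The labels do not say how many knockout clones there were or whether the replicates were separate cultures, so a difference between the genotypes cannot be told apart from a difference between clones.

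SLIT proteins are large secreted glycoproteins that bind ROBO receptors on the cell surface and are best known for repelling growing axons at the midline of the nervous system. ROBO receptors have no enzyme activity of their own, and on SLIT binding they recruit adaptors and regulators of small GTPases, among them the SRGAP proteins, which bend membranes and switch off RAC1 or CDC42. The same ligands and receptors are used outside the nervous system, in kidney development, in blood vessels and in tumour cells.

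The ligand and receptor genes are also joined by a miRNA. MIR218-1 lies in an intron of SLIT2 and MIR218-2 in an intron of SLIT3. Both give the mature miR-218-5p (chr4:20528299-20528319, plus strand, and chr5:168768211-168768231, minus strand, GRCh38.p14), which is known to repress ROBO1 and ROBO2. It is shown because its hosts and its known targets are all members of the family. The sequences come from RefSeq for the miRNA and from GENCODE release 29 (GRCh38) for the 3′ UTRs, and the capitals mark the seed, bases 2 to 8, and its match AAGCACA on the transcript strand. ROBO1 held 1 match (within chr3:78597925-78597953, minus strand) and ROBO2 held 2 (within chr3:77646500-77646528 and chr3:77648945-77648973, plus strand). These coordinates are those of the 29 bases shown for each site.
miR-218-5p: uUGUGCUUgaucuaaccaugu
ROBO1 site: tttggttttaaAAGCACAatcactaaact
ROBO2 site a: tatttggtgatAAGCACAaatctctactc
ROBO2 site b: atgtccaatacAAGCACAgcttcattcat

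A single match of this length is common. The longest annotated 3′ UTR of ROBO1 had 1673 bases, and 14.5% of 3542 gene 3′ UTRs within 25% of that length held at least 1 match, and 32.4% of 2539 did for the 3909 bases of ROBO2. At least 2 matches, as in ROBO2, were held by 5.99% of those 2539. Other members held matches too: SLIT2 and SRGAP1 had 2 each, SLIT3 and SRGAP2 had 1 each, and SLIT1, ROBO3 and SRGAP3 had 0. As many as in SLIT2 were held by 1.31% of 3′ UTRs of like length, and as many as in SRGAP1 by 51.4%. The miRNA itself was not analysed here.

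ROBO2 was the member with the largest difference between the genotypes, and it has 2 annotated starts whose surroundings differ in base composition. The 300 bases around each (250 before the start and 50 after it, RefSeq, GRCh38.p14, plus strand, CG dinucleotides in capitals) are shown because a gene-level count does not say which start the reads came from. The distal one (chr3:76310630-76310929) has 46.7% G+C and 7 CG dinucleotides, and 63.2% of 35116 RefSeq promoters have as many. The proximal one (chr3:77039849-77040148) has 72.3% G+C and 31 CG dinucleotides, reached by 20.7% of promoters. The starts of ROBO1 have 11 and 15 CG dinucleotides.
ROBO2 distal start: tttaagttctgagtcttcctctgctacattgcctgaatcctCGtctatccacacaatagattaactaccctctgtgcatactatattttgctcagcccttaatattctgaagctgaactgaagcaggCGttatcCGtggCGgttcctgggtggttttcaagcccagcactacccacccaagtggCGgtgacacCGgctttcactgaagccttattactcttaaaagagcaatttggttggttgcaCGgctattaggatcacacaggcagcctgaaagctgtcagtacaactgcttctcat
ROBO2 proximal start: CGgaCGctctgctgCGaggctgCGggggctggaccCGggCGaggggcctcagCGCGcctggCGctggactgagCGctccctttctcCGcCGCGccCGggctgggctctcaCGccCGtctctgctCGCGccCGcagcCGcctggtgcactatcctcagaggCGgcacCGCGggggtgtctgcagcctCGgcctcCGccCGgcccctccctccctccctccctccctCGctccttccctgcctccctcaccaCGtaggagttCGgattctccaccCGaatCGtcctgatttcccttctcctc

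Libraries held 19389644 to 27659835 counts in the knockout and 17322756 to 28988522 in wildtype. Levels are given as CPM, a gene's counts scaled to the size of its library, and a count of 3 stood for 0.109 to 0.161 CPM. DEGS1 averaged 8.93 ± 1.84 CPM in the knockout and 107.6 ± 13.8 CPM in wildtype (SD, n = 3 each), and every knockout library was below every wildtype library. Wildtype replicate 2 stood apart from the other wildtype libraries, at 31.2 and 48.2 chi-square units per degree of freedom from them, where those 2 differed from each other by 11.7, and the knockout pairs lay between 13.4 and 28.7. Calls of members, named pathway genes and pathway lists that change when this library is left out are given both ways. Calls of cell type markers are given only from the fit with all 6 libraries.

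In the fit across all genes (edgeR, adjusted p under 0.05) 1 of the 9 members was called, ROBO2, which rose in the knockout, against 4.46% of all tested genes called in either direction, 1.51% called higher and 2.95% called lower. The other 8 did not pass, and none was called lower. Without wildtype replicate 2, 2 members were called higher, ROBO2 and SRGAP3, and 1 lower, SRGAP2. That fit called 1835 of 17305 tested genes higher and 1990 lower. Log2 fold changes, knockout over wildtype, were positive in 4 members and negative in 5. Their median absolute size was 0.43, against 0.19 over all tested genes. In 4 members the libraries of the genotypes did not overlap, as in 20.8% of all tested genes: ROBO2, SRGAP1 and SRGAP3 were higher in every knockout library and ROBO1 was lower in every one. Because the contrast was known when the family was chosen, these shares are read only as a description. RNA levels in a bulk sample do not tell more RNA per cell from more cells with the RNA.

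**Figure D1:**
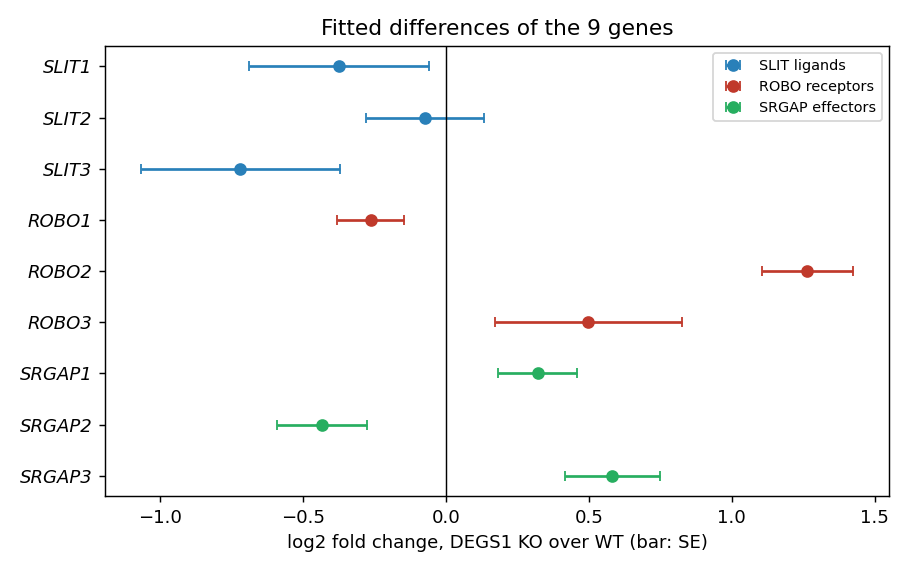
Log2 fold change of each gene, DEGS1 knockout over wildtype, on the horizontal axis, with its standard error as a bar, from 3 libraries per genotype; colours mark ligands, receptors and effectors. ROBO2 stands alone above 1 on the log2 scale, at 1.27, and the other 8 genes lie between -0.72 and 0.58.

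Among the ligands, SLIT2 was the abundant one and did not separate the genotypes. It stood at 47.8, 81.2 and 47.1 CPM in knockout replicates 1 to 3, against 64.0, 53.0 and 68.4 CPM in wildtype replicates 1 to 3. Knockout replicate 2 was the highest of the 6 libraries and the other knockout libraries were the lowest, so the groups overlapped. Its log2 fold change of -0.07 (SE 0.21) had a sign that turned when knockout replicate 1 (0.07), knockout replicate 3 (0.07) or wildtype replicate 3 (0.01) was left out.

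SLIT3, a close relative of SLIT2 that is also made by mesenchymal and vascular cells, was the most uneven member. It had 5.08, 11.7 and 4.05 CPM in the knockout libraries, against 11.2, 10.6 and 12.6 CPM in the wildtype libraries. Knockout replicates 1 and 3 lay well below every wildtype library, and knockout replicate 2 lay among them. The SD was 4.18 CPM in the knockout and 1.03 CPM in wildtype. Its log2 fold change was -0.72 (SE 0.35) and did not pass; without knockout replicate 2 it was -1.33 and passed.

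SLIT1, the family member most restricted to the nervous system, was the lowest of the 9 genes. It had 24, 35 and 52 counts in the knockout libraries, against 57, 38 and 41 in the wildtype libraries, or 1.49 ± 0.357 CPM in the knockout and 1.95 ± 0.467 CPM in wildtype (SD, n = 3 each). The genotypes overlapped, and the log2 fold change was -0.37 (SE 0.32). In the annotation, 1.82% of the 75-base windows of its longest transcript are shared with the readthrough gene ARHGAP19-SLIT1, which has a row of its own.

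Within the ligand counts the genotypes were easier to separate than in the levels. SLIT2 gave 88.3%, 86.1% and 88.8% of all SLIT counts in knockout replicates 1 to 3, against 82.6%, 81.5% and 82.2% in wildtype replicates 1 to 3. SLIT3 gave 9.38%, 12.4% and 7.63% in the knockout libraries, against 14.5%, 16.3% and 15.2% in the wildtype libraries. The shares of SLIT2 and SLIT3 did not overlap between the genotypes, also in knockout replicate 2, where both genes were high. These shares are not independent, because SLIT2 and SLIT3 together gave nearly all SLIT counts. How often shares within other gene families separate the genotypes was not tested. Wilson 95% intervals for SLIT3 ran from 11.2% to 13.8% in knockout replicate 2 and from 13.0% to 16.1% in wildtype replicate 1, so the intervals of these neighbouring libraries overlapped.

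ROBO2, a receptor needed for axon guidance and for kidney and ureter development, was more than doubled. It stood at 71.6, 109.7 and 75.2 CPM in knockout replicates 1 to 3, against 32.4, 39.3 and 35.1 CPM in wildtype replicates 1 to 3. Every knockout library was above every wildtype library, and the lowest knockout value was well clear of the highest wildtype value. The means were 85.5 ± 21.1 CPM in the knockout and 35.6 ± 3.47 CPM in wildtype (SD, n = 3 each). The fitted ratio was 2.40, a log2 fold change of 1.27 (SE 0.16), and 0.702% of all tested genes had one as high. It ran from 1.05 without knockout replicate 2, the highest library, to 1.39 without knockout replicate 1, and passed in all 16 other settings that were tried.

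ROBO1, the other main SLIT receptor and the neighbour of ROBO2 on chromosome 3, was slightly lower in the knockout and did not pass. It stood at 114, 126 and 110.1 CPM in the knockout libraries, against 133, 133 and 154 CPM in the wildtype libraries. All 3 knockout libraries were below all 3 wildtype libraries, but by little. A log2 fold change of -0.26 (SE 0.12) resulted, and it passed in none of the 16 other settings.

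ROBO3, which in mammals binds NELL2 rather than SLIT proteins and lets commissural axons cross the midline, was low. It had 4.10, 2.29 and 4.67 CPM in the knockout libraries, against 2.67, 1.78 and 3.43 CPM in the wildtype libraries, so the groups overlapped (log2 fold change 0.50, SE 0.33, and 0.28 without wildtype replicate 2). The replicate 2 library was the lowest of each genotype. ROBO4, the endothelial receptor of the family and no member here, had 8 counts over the knockout libraries and 7 over the wildtype libraries and was not tested.

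**Figure D2:**
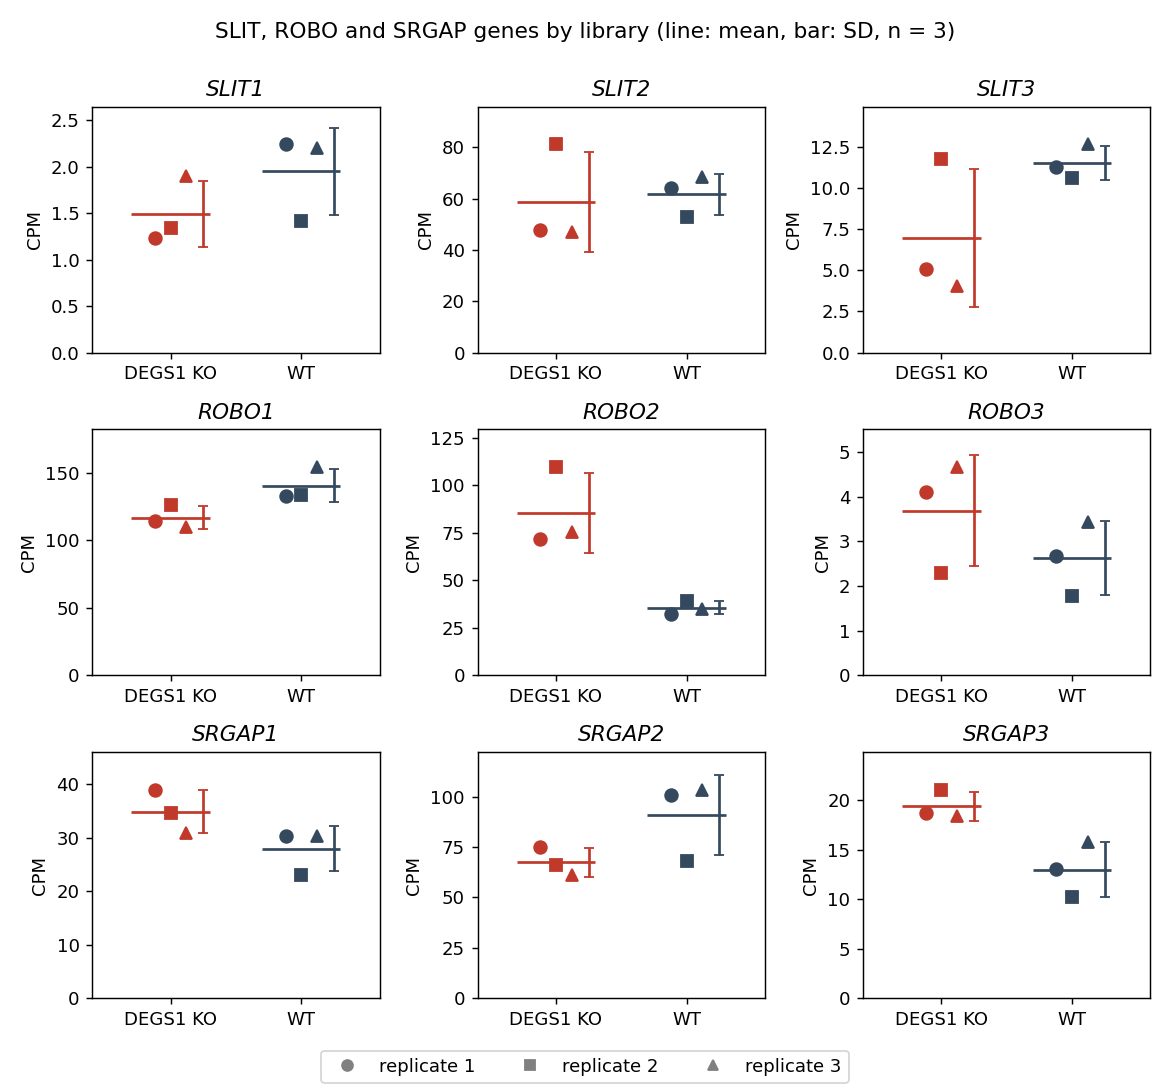
CPM of each gene in each library, with DEGS1 knockout on the left and wildtype on the right of each panel; marker shapes give the replicate number, lines the mean and bars the SD (n = 3). ROBO2 runs from 71.6 to 109.7 CPM in the knockout and from 32.4 to 39.3 CPM in wildtype, while SLIT2 and SLIT3 spread in the knockout because replicate 2 is high.

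ROBO2 made up a larger part of the receptor counts in every knockout library. It gave 37.7%, 46.0% and 39.6% of the counts of ROBO1, ROBO2 and ROBO3 together in knockout replicates 1 to 3, against 19.3%, 22.5% and 18.2% in wildtype replicates 1 to 3. ROBO1 gave 57.0% ± 3.64 in the knockout and 78.5% ± 1.84 in wildtype (SD, n = 3 each). ROBO3 gave 0.962% to 2.46% in the knockout libraries and 1.02% to 1.78% in the wildtype libraries. For every ROBO1 count there were 0.628, 0.868 and 0.683 ROBO2 counts in the knockout libraries, against 0.243, 0.294 and 0.228 in the wildtype libraries, a ratio within each library that does not depend on how libraries are scaled.

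**Figure D3:**
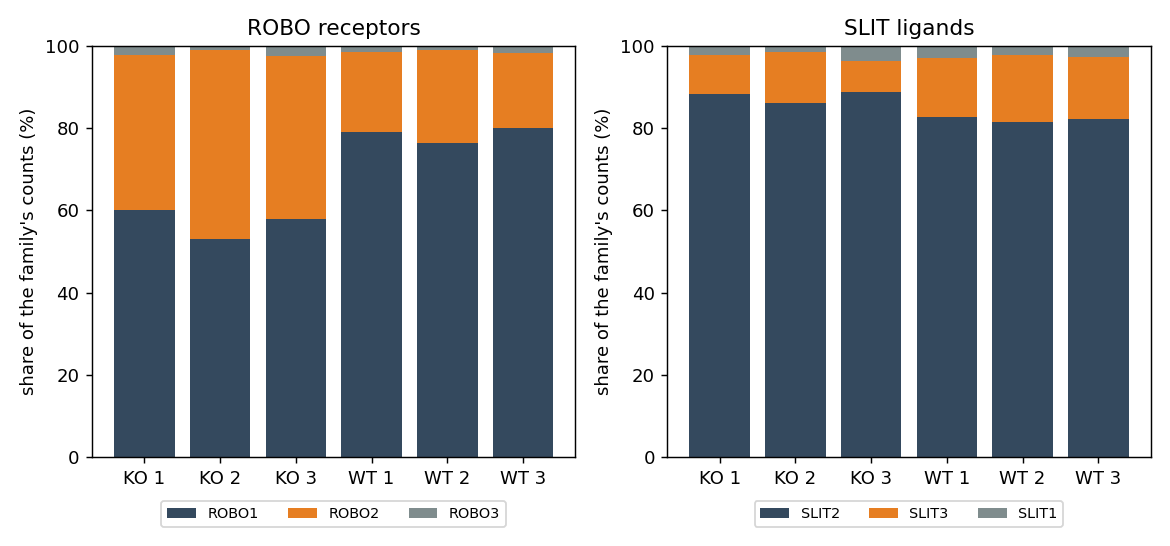
Share of each gene in the summed counts of the ROBO receptors (left) and of the SLIT ligands (right), in percent, for the 3 knockout and then the 3 wildtype libraries. ROBO2 takes 37.7% to 46.0% of receptor counts in the knockout and 18.2% to 22.5% in wildtype; SLIT3 takes 7.63% to 12.4% of ligand counts in the knockout and 14.5% to 16.3% in wildtype.

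Of the effectors, SRGAP3, which acts on RAC1 and is also called WRP, came nearest to a call without passing. It stood at 18.7, 21.1 and 18.4 CPM in the knockout libraries, against 13.0, 10.2 and 15.7 CPM in the wildtype libraries. All knockout libraries were above all wildtype libraries (log2 fold change 0.58, SE 0.17). It passed in 5 of the 16 other settings. These were the DESeq2 Wald test, no filter, correction for length and GC content, and leaving out wildtype replicate 2 (0.44) or wildtype replicate 3 (0.74).

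SRGAP1, which acts on CDC42 downstream of ROBO receptors, was slightly higher in the knockout. It stood at 39.0, 34.6 and 30.9 CPM in the knockout libraries, against 30.3, 23.1 and 30.4 CPM in the wildtype libraries. The groups did not overlap, but the lowest knockout library was within 1 CPM of the highest wildtype library. The log2 fold change was 0.32 (SE 0.14); among the 16 other settings it passed only when length and GC content were corrected for, at 0.55, and it was 0.20 without wildtype replicate 2. Its longest transcript has 23331 bases, the longest of the 9.

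SRGAP2, a membrane-bending protein that controls neuronal migration and spine maturation, was lower on average in the knockout. It stood at 75.0, 66.2 and 61.0 CPM in the knockout libraries, against 101, 68.1 and 104 CPM in the wildtype libraries. Wildtype replicate 2 lay among the knockout libraries and the other wildtype libraries lay above them. The log2 fold change was -0.43 (SE 0.16) and did not pass; without wildtype replicate 2 it was -0.60 and passed. Wildtype replicate 2 was also the lowest of the 3 wildtype libraries in SLIT1, SLIT2, SLIT3, ROBO3, SRGAP1 and SRGAP3. Such lows were common in that library. By log2 difference from the mean of the other wildtype libraries, 14.5% (for ROBO3) to 40.7% (for SLIT3) of all tested genes were as low.

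The value of SRGAP2 is also uncertain because the human genome holds partial copies of the gene. SRGAP2C is a human-specific truncated copy whose protein is known to inhibit SRGAP2, and SRGAP2B and SRGAP2D are further copies. Of the 75-base windows of the longest SRGAP2 transcript, 75 being the read length, 18.2% occur unchanged in a transcript of SRGAP2B, SRGAP2C or SRGAP2D, and reads from these windows cannot be assigned to 1 gene by sequence. Of the windows of SRGAP2B, SRGAP2C and SRGAP2D, 73.3%, 68.2% and 96.8% occur in another gene of this group. No other member shared a window with another gene, apart from SLIT1.

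The copies had log2 fold changes nearer to 0 than the -0.43 of SRGAP2. SRGAP2C stood at 61.0 ± 2.56 CPM in the knockout and 61.0 ± 2.57 CPM in wildtype (SD, n = 3 each) (log2 fold change 0.00, SE 0.10). SRGAP2B stood at 64.7 ± 4.93 CPM in the knockout and 73.4 ± 3.93 CPM in wildtype (log2 fold change -0.18, edgeR adjusted p = 0.428). SRGAP2D, the shortest copy, was at -0.31 on the same scale (SE 0.18), with an edgeR adjusted p of 0.439. None of the 3 passed, and the difference between SRGAP2 and its copies was not tested.

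Per length of the longest annotated transcript, the order of levels differed between the genotypes only in SLIT3 and ROBO3, which changed places. In the knockout the order was ROBO1 (15.6 CPM per kb), SRGAP2 (10.7), SLIT2 (9.19), ROBO2 (8.94), SRGAP3 (2.24), SRGAP1 (1.49), ROBO3 (0.807), SLIT3 (0.717) and SLIT1 (0.188). In wildtype ROBO1 led with 18.7 CPM per kb, ahead of SRGAP2 (14.4), SLIT2 (9.67), ROBO2 (3.72), SRGAP3 (1.501), SRGAP1 (1.20), SLIT3 (1.19), ROBO3 (0.575) and SLIT1 (0.246). In the knockout the level per kb of ROBO2 (8.94) differed from that of SLIT2 (9.19 ± 3.05) by less than the SD of either, and so did SLIT3 from ROBO3. SRGAP2 (10.7 ± 1.12) differed from SLIT2 by less than the SD of SLIT2 but more than its own. In wildtype ROBO2 (3.72 ± 0.363) was clear of SLIT2 (9.67) by far more than their SDs, and SRGAP1 (1.20 ± 0.180) and SLIT3 (1.19 ± 0.106) differed by less than the SD of either. The order depends on the length used: per kb of the median transcript length SRGAP2 came before ROBO1, at 60.8 against 32.8 CPM per kb in the knockout and 82.1 against 39.3 in wildtype, and SRGAP1 came before SRGAP3 in both genotypes.

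Knockout replicate 2 was higher than the other knockout libraries in SLIT2, SLIT3 and ROBO2. Against the mean of the other knockout libraries its log2 difference was 1.34 for SLIT3, 0.77 for SLIT2 and 0.58 for ROBO2, and 0.236%, 1.30% and 2.49% of all tested genes were as high by that measure, whose median over all tested genes was -0.01. ROBO1 (0.17), SRGAP1 (-0.01) and SRGAP2 (-0.04) stayed close to that median, and ROBO3 was lower (-0.91). Without that library ROBO2 kept its call.

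The genes nearest in pattern over the 6 libraries were found by the root mean square difference of log2 CPM centred on each gene's mean, among 11431 genes of at least 5 CPM, for the most abundant member of each class. For SLIT2 they were MOB3B (0.07), KIAA1024 (0.09) and MAP2K5 (0.10), which share its high value in knockout replicate 2, MOB3B with 30.6, 50.4 and 33.8 CPM in the knockout libraries against 42.3, 36.7 and 45.0 CPM in the wildtype libraries. For ROBO1 they were ADAM22, APBA2 and ZNF431 (0.04 each). For SRGAP2 they were WNT2B, CAPS2 and SYMPK (0.05 each), which share its low value in wildtype replicate 2, SYMPK with 58.0, 47.0 and 44.9 CPM in the knockout libraries against 71.2, 47.6 and 75.8 CPM in the wildtype libraries.

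ROBO2 and ROBO1 lie side by side on chromosome 3, and the tested genes around the pair did not rise with ROBO2. The 3 nearest tested genes on one side, AGGF1P3, FRG2C and ZNF717, had log2 fold changes of -0.52 (SE 0.51), -0.31 (SE 0.53) and -0.35 (SE 0.12). AGGF1P3 averaged only 0.290 CPM in the knockout and 0.399 CPM in wildtype, and FRG2C 0.351 and 0.441 CPM. The signs of these low genes are therefore uncertain. The 3 on the other side, GBE1, CADM2 and VGLL3, had -0.33 (SE 0.15), -0.52 (SE 0.20) and -0.07 (SE 0.11). All 6 were negative and none passed the test (lowest edgeR adjusted p = 0.150, for ZNF717). These genes were chosen after the values of ROBO2 were seen.

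The direct partners of the pathway had no call with all 6 libraries. Of 13 tested genes for other ROBO ligands, co-receptors and heparan sulfate enzymes, 0 rose and 0 fell in edgeR's test, and 4 had an unadjusted p under 0.05, a share to be read against 16.5% of all tested genes; the DESeq2 Wald test called 2. Without wildtype replicate 2, 6 of the 13 were called higher and 0 lower, in a fit that called 1835 of 17305 tested genes higher and 1990 lower. The smallest p was that of SDC2, a heparan sulfate co-receptor, at a mean of 172 CPM in the knockout and 107 CPM in wildtype; its log2 fold change of 0.68 (SE 0.20) had an edgeR adjusted p of 0.0942. Without wildtype replicate 2 SDC2 passed, at 0.91 (edgeR adjusted p = 0.0189). NELL2, the secreted ROBO3 ligand, named after its values were seen, stood at 102, 134 and 111 CPM in the knockout libraries, against 55.3, 98.7 and 53.4 CPM in the wildtype libraries. Its groups did not overlap, but wildtype replicate 2 was close to the knockout libraries (log2 fold change 0.74, edgeR adjusted p = 0.137). NELL2 passed in 3 of the 16 alternatives. Among them were a fit that also held the replicate number (edgeR adjusted p = 0.00402) and the fit without wildtype replicate 2, which gave 1.09.

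The cytoplasmic effectors had no call either with all 6 libraries. Of 26 genes for kinases, adaptors, actin regulators and small GTPases downstream of ROBO receptors, 0 rose and 0 fell in edgeR's test, 6 had an unadjusted p under 0.05, and the DESeq2 Wald test called 1. Without wildtype replicate 2, 5 of the 26 were called higher and 2 lower, in a fit that called 1835 of 17305 tested genes higher and 1990 lower. The smallest p was that of PAK3, a kinase activated by RAC1 and CDC42, at 10.5, 19.9 and 11.4 CPM in the knockout libraries, against 19.8, 23.6 and 26.3 CPM in the wildtype libraries (log2 fold change -0.73, edgeR adjusted p = 0.119). As in SLIT2 and SLIT3, its knockout replicate 2 was the high one, and without it PAK3 passed (log2 fold change -1.08, edgeR adjusted p = 0.00919). PAK3 also passed in a fit that held the replicate number (edgeR adjusted p = 0.0399).

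**Figure D4:**
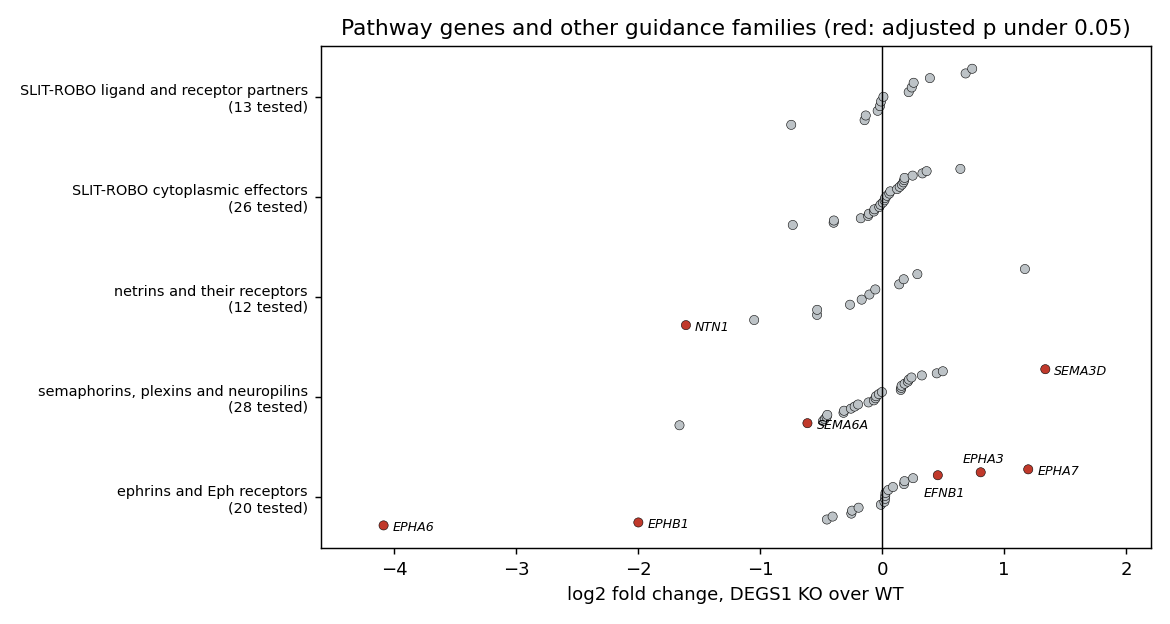
Log2 fold change, DEGS1 knockout over wildtype, of each tested gene in 5 lists of SLIT-ROBO partners and other guidance families, 1 point per gene; red points passed edgeR's test over all genes at an adjusted p under 0.05. The 39 partner and effector genes hold no red point, and the ephrin family holds 5.

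Other guidance families changed in single genes, in both directions. Of 60 tested genes of the netrin, semaphorin and ephrin families, 4 rose and 4 fell, or 13.3%, against 4.46% of all tested genes. Without wildtype replicate 2 these numbers were 0 higher and 2 lower among netrin genes, 3 and 4 among semaphorin genes and 3 and 4 among ephrin genes. That fit called 1835 of 17305 tested genes higher and 1990 lower, so its counts are not to be read against 4.46%. In the ephrin family 3 of 20 rose and 2 fell. EPHA7, an Eph receptor of the developing cortex, rose to 54.5 ± 4.37 CPM in the knockout, against 23.8 ± 7.79 CPM in wildtype (log2 fold change 1.20, edgeR adjusted p = 0.0133). EPHA3 rose to 74.0 ± 5.86 CPM, against 42.3 ± 5.48 CPM in wildtype (0.81, SE 0.12, edgeR adjusted p = 0.00234). EFNB1, an ephrin ligand named after its values were seen, rose by 0.46 on the log2 scale (edgeR adjusted p = 0.0297), a call lost in 6 of 16 other settings. EPHA6 fell to 0.173 ± 0.0756 CPM in the knockout, against 2.91 ± 0.690 CPM in wildtype (log2 fold change -4.08, edgeR adjusted p = 0.000154). Its knockout libraries held 5, 4 and 3 counts, near the floor of 3, so the size of that fall is uncertain. EPHB1 fell by 2.00 on the log2 scale (SE 0.33, edgeR adjusted p = 0.00388).

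In the semaphorin family 1 of 28 tested genes rose and 1 fell. SEMA3D, a secreted semaphorin, rose to 10.1 ± 2.27 CPM in the knockout, against 3.95 ± 0.969 CPM in wildtype (log2 fold change 1.34, edgeR adjusted p = 0.0075). SEMA6A, a membrane-bound one, fell to 109 ± 9.39 CPM in the knockout, against 166 ± 27.6 CPM in wildtype (-0.61, SE 0.14, edgeR adjusted p = 0.0312), a call lost in 6 of 16 other settings. In the netrin family 1 of 12 fell: NTN1, the netrin that guides commissural axons, stood at 0.774 ± 0.142 CPM in the knockout and 2.38 ± 1.10 CPM in wildtype (-1.61, SE 0.39, edgeR adjusted p = 0.0401), a call lost in 9 of 16 other settings. EPHA7 lost its call in 3, among them the fits without knockout replicate 1 (edgeR adjusted p = 0.0546) and without wildtype replicate 3 (0.0602).

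Markers of the cell types in which these genes are usually studied varied widely in level, and some differed between the genotypes. Calls in each list are to be read against 4.46% of all tested genes called in either direction. Of 11 neuron markers 7 were tested, of which MAP2 and SNAP25 rose and SYT1 fell. SNAP25 held 25, 22 and 24 counts in the knockout libraries and 2, 5 and 5 in the wildtype libraries, near the floor of 3. Log2 fold changes were positive in 3 of the 7 and negative in 4. The 11 markers summed to 189 to 204 CPM in the knockout and 160 to 177 CPM in wildtype, and none was at 0 in all libraries. MAP2 averaged 68.1 CPM in the knockout and 25.8 CPM in wildtype, while TUBB3, the marker with the highest level, averaged 118 and 131 CPM. Of 7 markers of neural progenitors and glia, NES and OLIG2 were called higher and none lower. Log2 fold changes were positive in 3 tested markers and negative in 3. The 7 summed to 467 to 526 CPM in the knockout and 343 to 438 CPM in wildtype. NES averaged 288 CPM in the knockout and 164 CPM in wildtype, and SOX2 188 and 197 CPM. Among 7 mesenchymal markers 2 rose, VIM and ZEB1. Their log2 fold changes were positive in 5 and negative in 2, FN1 and THY1. The sum of the 7 was 846 to 989 CPM in the knockout and 582 to 650 CPM in wildtype. Most of it was VIM, at a mean of 712 CPM in the knockout and 421 CPM in wildtype. Of 6 epithelial markers EPCAM fell, from a mean of 2.16 CPM in wildtype to 0.275 CPM in the knockout. Log2 fold changes were positive in 3 tested epithelial markers and negative in 2. The 6 summed to 69.7 to 103.8 CPM in the knockout and 69.1 to 74.5 CPM in wildtype. Endothelial markers summed to 5.03 to 5.18 CPM in the knockout and 3.42 to 6.32 CPM in wildtype, and of 8 blood cell markers 6 were under 1 CPM and 2 were at 0 in all libraries, although the line came from a leukaemia. The part of these differences in the level of ROBO2 was not tested.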

How the data were processed

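The authors deposited raw read counts, 1 whole number per gene symbol and library, for 6 RNA-seq libraries. Per the labels' protocols, cells were taken 24 h after passage and a stranded total RNA kit was read as single reads of 75 nt. Per the submitters' processing notes, bcl2fastq 2.20 and genome build hg19 were used. Aligner, counter and strand setting were not given in the sources used here. Exons of SRGAP2 overlap FAM72A and those of SRGAP3 overlap THUMPD3 on the opposite strand, so a few of their reads could be misassigned.

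The counts were fitted for all genes with edgeR 4.0.16 (R 4.3.3): TMM scaling, the package's expression filter, quasi-likelihood F test on genotype, Benjamini-Hochberg adjustment over 16954 genes, called under 0.05. SE was obtained from the fold change (log2, absolute) and the root of F. The biological coefficient of variation was 16.4%. The pipeline was tested on simulated data. Members, lists and rules were chosen with earlier results of these data known. Named genes are the members, DEGS1, up to 4 called genes per pathway list (or the one with the smallest p), the 3 nearest in pattern and the copies of SRGAP2; exceptions are marked. Of 125 pathway genes 113 had a row. Wilson intervals (95%) and floors cover counting error only. Same-numbered libraries of the genotypes share a code in the labels, whose meaning is not given there. Their deviations did not settle whether the numbers pair the libraries, and the main fit held genotype only. No 2 libraries of 1 genotype agreed within sampling noise. The spread behind each p-value is that of these libraries and may be technical. Symbols were matched to RefSeq and GENCODE 29, both on GRCh38, for lengths, order and sequences only.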

Additional observations from a re-analysis of the deposited data

How the results depend on the processing

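ROBO2 was called in each of the 16 alternatives (log2 fold change 1.05 to 1.39), and 8 of the 9 members kept their sign throughout. The sign of SLIT2 turned without knockout replicate 1 (0.0708), knockout replicate 3 (0.07) and wildtype replicate 3 (0.01), in a range of -0.38 to 0.0708 with 1 library left out. Members called higher numbered 2 in the DESeq2 Wald test and with no filter and 3 with the length and GC trend removed, and ran from 1 to 2 with 1 library left out; those called lower ran from 0 to 1. All genes called higher numbered 385 in the DESeq2 Wald test, 390 with the replicate block and 112 at a threshold of 0.01, where 263 were lower; with 1 library left out they ran from 113 to 1835 higher and from 267 to 1990 lower, the highest without wildtype replicate 2. The cause was not tested. Whether the replicate numbers pair the libraries was not settled. Deviations of same-numbered libraries correlated at 0.215, 0.309 and -0.125, and those of differently numbered ones at -0.412 to 0.364. With a block on the replicate number 390 genes were called higher and 692 lower, against 256 and 500 without it. With the replicate block 1 member was called higher and 0 lower. Among the members and the pathway genes named here, the block added calls of NELL2 (edgeR adjusted p = 0.00402) and PAK3 (0.0399) and changed no other. Counts of calls in the partner, effector and semaphorin lists also changed with it, as given below.

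Partner genes called higher numbered 2 in the DESeq2 Wald test and with the replicate block (0 to 6 with 1 library left out, 6 without wildtype replicate 2). Effectors numbered 1 higher with the block, and 1 lower with it and in the DESeq2 Wald test (0 to 5 higher and 0 to 2 lower with 1 library left out, 5 and 2 without wildtype replicate 2). Netrin genes called lower numbered 0 with upper-quartile scaling, library size only, limma voom, a filter of 1 CPM in 3 libraries and a threshold of 0.01 (0 to 2 with 1 library left out, 2 without wildtype replicate 2 and 0 without any other). Semaphorin genes called lower numbered 0 with library size only and at 0.01, and 2 in the DESeq2 Wald test, limma voom, the replicate block and the length and GC fit (1 to 3 higher and 0 to 4 lower with 1 library left out, 3 and 4 without wildtype replicate 2). Ephrin genes numbered 1 higher with library size only and at 0.01, and 4 lower with no filter (1 to 3 higher and 2 to 4 lower with 1 library left out; 1 higher without knockout replicate 1 or wildtype replicate 3, 4 lower without wildtype replicate 2). The levels per length all moved with the median transcript length in place of the longest, which put SRGAP2 before ROBO1. With 1 of 3 libraries left out a mean share always moves by less than its SD, so that rule did not test the family shares. The SLIT1 share in the knockout, for example, ran from 1.85% to 2.92% with 1 library left out. Depth limits SLIT1 and ROBO3 most, with 24 to 128 counts per library.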
